A study of Homo sapiens with 13 samples.

Results

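Total RNA of K562 cells was compared between 12 h and 8 h of a uridine chase, the last interval of a SLAM-seq time course, to describe which transcripts still changed in level that late. The comparison used 4 of the 13 libraries of the series, 2 at 8 h and 2 at 12 h, chosen by their labels. The filter, scaling and estimate of spread came from a fit of all 13. The comparison covered the 16255 of 59204 human gene identifiers that passed a filter on low counts. K562 is an established line of chronic myeloid leukaemia. In both groups the cells were grown in RPMI with heat-inactivated serum, labelled with 30 µM 4-thiouridine (4sU) for 12 h while the medium was exchanged every 3 h, washed, and put in medium with 3 mM uridine for 8 or 12 h. The other libraries were taken at 0, 1, 2 and 4 h of chase, 2 at each time, and from a control without 4sU, for which there was 1 library and the labels give no chase time. The labels do not say whether the 2 libraries of a time came from separate cultures, so p-values describe the spread between these libraries alone, and that spread may be technical.

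SLAM-seq follows RNA by giving cells 4sU, a uridine analogue that enters newly made RNA. Alkylation with iodoacetamide then makes the labelled bases read as C in place of T, and an excess of uridine stops further labelling, so that labelled transcripts are lost as they decay and unlabelled ones take their place. A count of all reads of a gene, labelled or not, is its total level, which stays still when synthesis balances decay and moves when the cells, or their response to the labelling and the change of medium, have not settled. Here reads came from the 3′ ends of polyadenylated RNA. K562 cells resemble erythroid progenitors, make fetal and embryonic globin and depend on the BCR-ABL1 kinase.

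The 4 libraries held 11951128 and 11739545 human counts at 8 h and 11507151 and 12820690 at 12 h. Labelled reads made up 16.8% ± 0.183 (SD, n = 2) of the counts at 8 h and 10.7% ± 0.274 (SD, n = 2) at 12 h. The defining genes of the line were present in all 4 libraries: in CPM (counts scaled to the library with TMM factors) the fetal globins HBG1 and HBG2 were among the most abundant messages, and GATA1, KLF1, TAL1, TFRC and ABL1 were all detected, as was BCR at a few CPM. Markers of other blood cells were low. The 18 megakaryocyte genes, with 7 of 17 measured members at 0, summed to 20.1 and 25.6 CPM at 8 h and 35.7 and 35.8 CPM at 12 h. The 19 granulocyte and monocyte genes summed to 19.99 and 37.1 and then 20.8 and 22.2 CPM, and the 18 lymphocyte genes, with 5 at 0, to 32.3 and 31.1 and then 42.8 and 41.1 CPM. The Drosophila RNA mixed in as a 5% spike-in did not pass through the chase. None of its 5839 tested genes was called between 12 h and 8 h by edgeR, where 241 (4.13%) had an unadjusted p under 0.05, and DESeq2 called 0 as well. The spike-in has far fewer counts per gene, so small changes were less detectable there. At means of 100 counts or more, 0 of 1039 spike-in genes and 1463 of 8585 human genes (17.04%) were called. Human counts per spike-in count were 13.96 and 15.2 at 8 h and 15.0 and 16.3 at 12 h, and the groups overlapped (difference 1.09, two-sided exact permutation p = 0.667, where 2 against 2 libraries cannot go below 0.333).

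Late in the chase the total transcriptome was still moving, in both directions and by small amounts. Between 8 and 12 h, 902 genes rose and 754 fell at a false discovery rate of 0.05, which is 5.55% and 4.64% of the genes tested and 10.2% together (edgeR's quasi-likelihood test with Benjamini-Hochberg adjustment). The median gene changed by −0.02 on the log2 scale. Called genes changed by a median of 0.42 (rises) and 0.43 (falls) on that scale, and 52 and 56 of them by over 2-fold. Protein-coding genes gave 843 rises and 580 falls of 11509 tested (7.32% and 5.04%). Of human genes with a mean of 100 counts or more 17.04% were called, so the shares of lists below are not matched for level. The 2 libraries of 12 h lay above both of 8 h in 26.4% of all genes and below both in 27.3%, and did so for 901 of the 902 rises and 753 of the 754 falls. In this fit 10.2% of genes were called here and 26.9% between 4 and 8 h (13.6% up, 13.3% down). Between 2 and 4 h it was 13.2% (7.35% up, 5.88% down), between 1 and 2 h 1.68% (1.26% up, 0.418% down), and between 0 and 1 h 0.357% (0.32% up, 0.0369% down). These percentages share libraries at each boundary time and were set side by side only. The replicates of 4 h stood apart from each other: their counts differed by a chi-square of 6.16 per degree of freedom, against 3.14 to 3.47 at the other times, and on the first principal component of 648 abundant spike-in genes (66.2% of the variance between libraries of the chase) they scored −3.13 and 2.68. The part of this in the shares around 4 h was not tested.

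The number of calls rested on all 4 libraries. Without 8 h replicate 1, 8 h replicate 2, 12 h replicate 1 and 12 h replicate 2 in turn, 256, 588, 429 and 396 genes rose and 355, 431, 290 and 280 fell. Of the rises 177 (19.6%), and of the falls 154 (20.4%), were called in all of these 4 fits, while 901 and 754 kept their sign in all of them. Changes are relative to the typical gene: with library sizes taken from the spike-in, the median gene moved to 0.11 (log2) and the calls became 1279 rises and 169 falls, 88.3% of them upward against 54.5%. A fall below is thus a fall against other transcripts, and the falls named below that were not called with spike-in sizes are given as such in their paragraph.

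**Figure D1:**
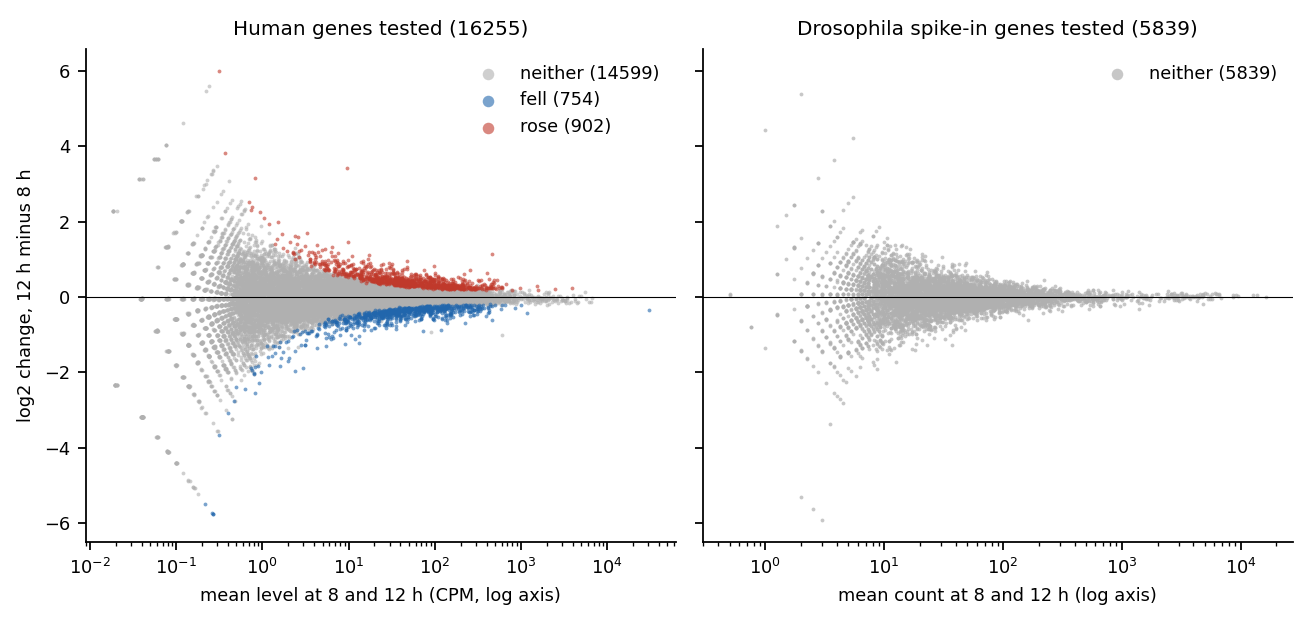
Log2 change from 8 to 12 h of chase (y axes) against the mean over the 4 libraries (x axes, log scale, CPM for human genes at left and counts for spike-in genes at right), 1 point per gene tested, with human genes that rose in red and fell in blue. The 902 rises and 754 falls lie on both sides of 0 over a wide range of levels, and none of the 5839 spike-in genes is called.

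The 12 largest rises among genes of at least 5 CPM came from genes of low level. CDK5 (ENSG00000164885, chromosome 7, 151053812 to 151058530), a cyclin-dependent kinase best known from neurons, was measured at 10.3 and 11.2 CPM at 8 h and 23.4 and 23.5 CPM at 12 h. Its log2 change was 1.12 ± 0.13 (adjusted p = 6.45e-06), where ± gives the standard error (SE) from the fit, as for all log2 changes below. The 2 libraries of each time were close together and the groups far apart. PYCR3 (ENSG00000104524, chromosome 8, 143603913 to 143609773), which catalyses the last step of a route to proline, went from 3.50 and 3.86 to 10.1 and 8.48 CPM, the steepest of these rises at 1.33 ± 0.24 (adjusted p = 0.00059). CDKN1C (ENSG00000129757, chromosome 11, 2883213 to 2885773), an imprinted inhibitor of cyclin-dependent kinases, rose from 4.04 and 5.18 to 9.68 and 11.1 CPM (1.18 ± 0.21 log2, adjusted p = 0.000585). BCKDK (ENSG00000103507, chromosome 16, 31106107 to 31112791), the kinase that restrains breakdown of branched-chain amino acids, rose from 6.92 and 7.07 to 15.6 and 14.3 CPM (1.09 ± 0.16 log2, adjusted p = 0.000101). In each of these genes the library without 4sU was higher than at 12 h, with 65.1 CPM for CDK5 and 101 CPM for BCKDK. The rule for this list required that both libraries at 12 h lie above both at 8 h. SERPINB9, an inhibitor of granzyme B, rose from 10.5 and 11.7 to 22.6 and 22.1 CPM (1.01 ± 0.16 log2, adjusted p = 0.000178). PACSIN3, a membrane-bending adaptor of endocytosis, stood at 3.11 and 4.44 CPM and then at 9.28 and 8.04 CPM (1.20 ± 0.23 log2, adjusted p = 0.000931). The noncoding VPS9D1-AS1 was at 2.72 and 3.53 CPM at 8 h and 7.65 and 7.39 CPM at 12 h, and at 74.1 CPM without 4sU. It lies antisense to VPS9D1, and since the sources used here do not give the use of strand in counting, reads of the pair cannot be told apart. The other members were TMEM63A, CBARP, PLXNA3 (a semaphorin receptor), PNMA6A and CHTF18 (a clamp loader of sister chromatid cohesion), with log2 changes from 0.98 to 1.10. PNMA6A has near-identical copies on the X chromosome and its count is uncertain. Of the 12, 8 were called without each of the 4 libraries. Just outside the 12 lay CTU2, chosen after its values were seen, whose product works in the thiolation of uridine in tRNA. It rose from 34.3 and 31.1 to 60.9 and 66.1 CPM (0.96 ± 0.10 log2, adjusted p = 1.75e-06), while its partner CTU1, chosen in the same way, was at 32.2 and 32.6 CPM at 8 h and 30.2 and 35.2 CPM at 12 h (adjusted p = 0.959). The calls of CBARP (without 12 h replicate 2), PLXNA3 (without 8 h replicate 1), CHTF18 (without 8 h replicate 1 or 12 h replicate 1) and PNMA6A (without any 1 of the 4) were lost.

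The 12 largest falls held 1 gene of high level and several near the limit of 5 CPM. ARL6IP1 (ENSG00000170540, chromosome 16, 18791667 to 18801678), a protein that shapes the endoplasmic reticulum, was at 159 and 150.0 CPM at 8 h and 81.8 and 86.2 CPM at 12 h. It fell by 0.88 on the log2 scale (SE 0.07, adjusted p = 1.89e-08), the smallest p of the whole comparison. CKAP2L (ENSG00000169607, chromosome 2, 112736607 to 112764677), a protein of the mitotic spindle, went from 90.7 and 101 to 44.5 and 58.3 CPM (−0.90 ± 0.10 log2, adjusted p = 5.05e-06). KLF6 (ENSG00000067082, chromosome 10, 3775996 to 3785281), a Krüppel-like transcription factor and immediate early gene, went from 49.4 and 42.1 to 21.9 and 28.4 CPM (−0.86 ± 0.11 log2, adjusted p = 1.79e-05). In all 3 the groups were clear of each other, as the rule for this list required. In these genes the library without 4sU lay lower still, at 33.3, 39.7 and 10.2 CPM. GTPBP2 (ENSG00000172432, chromosome 6, 43605316 to 43629162), a factor that frees stalled ribosomes, fell the most, from 9.64 and 7.48 to 3.82 and 4.02 CPM (−1.13 ± 0.22 log2, adjusted p = 0.00131). It was the 1 of the 12 that stood above both times in the library without 4sU, at 17.8 CPM. NCOA7, a nuclear receptor coactivator gene, went from 18.04 and 20.7 to 9.76 and 11.2 CPM (−0.88 ± 0.15 log2, adjusted p = 0.000332), and the zinc finger gene ZNF534 from 7.70 and 6.98 to 3.58 and 3.36 CPM (−1.08 ± 0.22 log2, adjusted p = 0.00191). ZNF534 was at 0.681 CPM without 4sU and AOC3, an amine oxidase gene, at 0.0619 CPM, so both were barely detected there. The others were PAQR6, INTU (a gene of ciliogenesis), MAP4K3 (a kinase of amino acid sensing), PPP4C (a phosphatase catalytic subunit) and RABGGTB (a subunit of the Rab prenylating enzyme), at log2 changes from −0.86 to −1.09. Only 6 of the 12 were called without each of the 4 libraries. PAQR6, MAP4K3 and RABGGTB lost the call without 8 h replicate 1 and without 12 h replicate 2, and AOC3 without 12 h replicate 2. INTU lost it without 8 h replicate 1 or either 12 h library, and PPP4C without 8 h replicate 1 or 12 h replicate 1 and with DESeq2. On unlabelled counts AOC3, RABGGTB and PPP4C were not called.

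**Figure D2:**
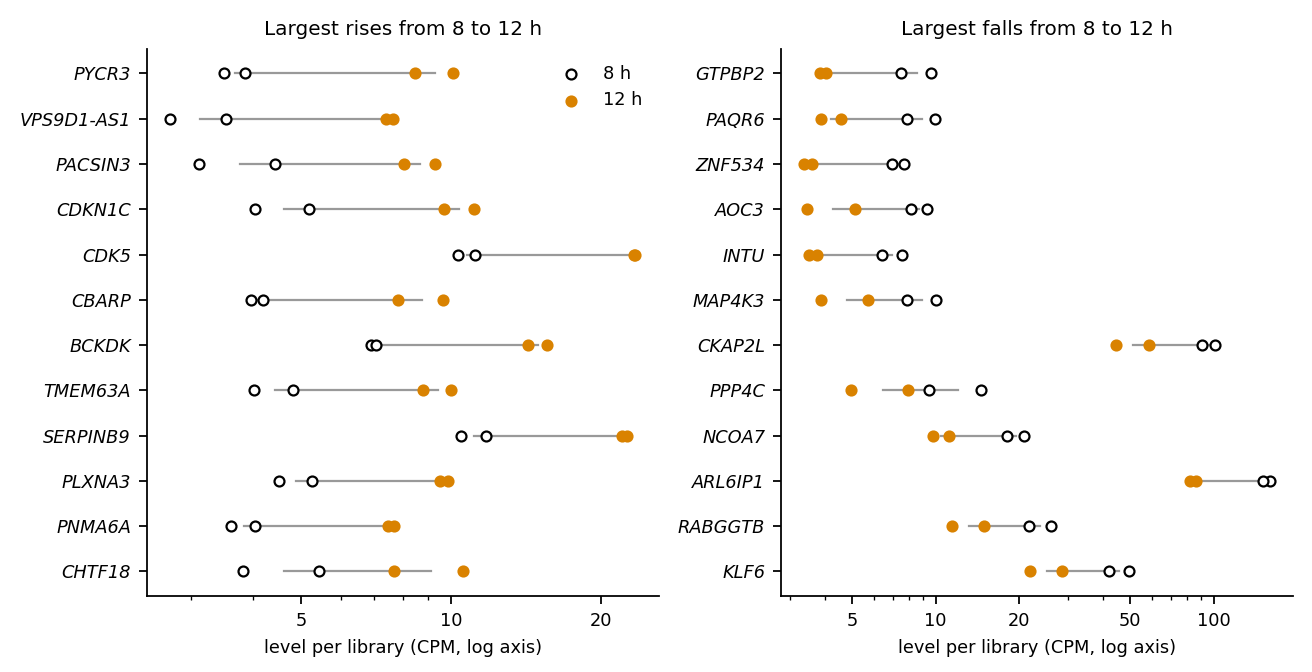
Level in CPM (x axes, log scale) of the 12 largest rises (left) and 12 largest falls (right), 1 circle per library, open for 8 h and filled for 12 h, with a line joining the means. By the rule of choice, both circles of one time lie on the same side of both circles of the other in every gene shown.

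Mitotic genes were called downward more often than upward. Of 50 tested genes of mitosis, 13 fell and 3 rose, against 4.64% and 5.55% of all genes, with a median log2 change of −0.16 against −0.02. CDK1 (ENSG00000170312, chromosome 10, 60778331 to 60794852), the kinase that drives entry into mitosis, was at 243 and 242 CPM at 8 h and 178 and 179 CPM at 12 h. The replicates of each time nearly coincided, and the log2 change was −0.44 ± 0.07 (adjusted p = 0.000128). Its partner cyclin CCNB1 (ENSG00000134057, chromosome 5, 69167010 to 69178245) went from 166 and 182 to 129.9 and 132 CPM (−0.41 ± 0.07 log2, adjusted p = 0.000564). KIF23 (ENSG00000137807, chromosome 15, 69414246 to 69448427), a kinesin of the central spindle, fell by the largest amount of the list, from 35.9 and 33.6 to 22.0 and 19.8 CPM (−0.74 ± 0.11 log2, adjusted p = 6.37e-05). SGO1, which guards centromeric cohesion, went from 72.8 and 70.2 to 43.7 and 48.3 CPM (−0.64 ± 0.09 log2, adjusted p = 3.92e-05). All 4 genes were non-overlapping between the times and were called without each library. CKS2, NUSAP1, KIF20A, HJURP, AURKA, NEK2, PRC1, ANLN and CCNF also fell, by 0.25 to 0.48 on the log2 scale. The 3 that rose were CDC25B, the phosphatase that activates CDK1, from 30.6 and 29.6 to 43.4 and 41.0 CPM (0.49 ± 0.11 log2, adjusted p = 0.00651), CKS1B (0.24 ± 0.06 log2) and CDC20 (ENSG00000117399, chromosome 1, 43358955 to 43363203), an activator of the anaphase-promoting complex, from 243 and 253 to 294 and 283 CPM (0.22 ± 0.07 log2, adjusted p = 0.0480). When 8 h replicate 1, 8 h replicate 2, 12 h replicate 1 and 12 h replicate 2 were left out in turn, 9, 8, 7 and 5 of the mitotic genes fell, and 4 fell with spike-in sizes. CCNB1 (−0.29, adjusted p = 0.0593) and NUSAP1, KIF20A, HJURP, AURKA, NEK2, PRC1, ANLN and CCNF were the falls lost with them. On unlabelled counts 7 fell and 4 rose, and CCNB1 (−0.27, adjusted p = 0.0771), NUSAP1, HJURP, NEK2, PRC1 and ANLN were not called. The median of the list was −0.07 on unlabelled counts and −0.03 with spike-in sizes, against 0.01 and 0.11 for all genes. In bulk samples, fewer cells in mitosis and less of these RNAs per cell cannot be told apart.

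Promoters of late cell cycle genes are known for CCAAT boxes, bound by NF-Y, and for the cell cycle homology region, whose core reads TTTGAA and which binds the DREAM and B-MYB-MuvB complexes. The RefSeq promoter windows (GRCh38.p14, 250 bases before to 50 after the start) of 43 of the 50 mitotic genes were available. CCAAT was found on either strand in 34 of them (79.1%), against 37.4% of the 10009 windows of tested genes, and TTTGAA in 30 (69.8%) against 9.64%. Both were present in 25 (58.1%) against 4.23%. Of the 12 windows of genes that fell, 11 held CCAAT and 8 held TTTGAA, and of the 3 of genes that rose, 2 held each. Windows of CDK1, KIF23, CCNB1 and CDC20 are shown to set genes that fell beside CDC20, which rose, with capitals on each match of CCAAT or TTTGAA or of its reverse complement. They are from the plus strand, 5′ to 3′, and lie in that order at chr10:60778081-60778380, chr15:69414099-69414398, chr5:69166900-69167199 and chr1:43358731-43359030.
CDK1: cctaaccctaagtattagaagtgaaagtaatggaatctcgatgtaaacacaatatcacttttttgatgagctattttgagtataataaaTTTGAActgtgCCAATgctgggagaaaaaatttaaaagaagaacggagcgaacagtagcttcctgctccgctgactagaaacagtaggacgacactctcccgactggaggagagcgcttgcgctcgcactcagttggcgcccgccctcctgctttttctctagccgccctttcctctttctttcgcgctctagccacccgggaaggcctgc
KIF23: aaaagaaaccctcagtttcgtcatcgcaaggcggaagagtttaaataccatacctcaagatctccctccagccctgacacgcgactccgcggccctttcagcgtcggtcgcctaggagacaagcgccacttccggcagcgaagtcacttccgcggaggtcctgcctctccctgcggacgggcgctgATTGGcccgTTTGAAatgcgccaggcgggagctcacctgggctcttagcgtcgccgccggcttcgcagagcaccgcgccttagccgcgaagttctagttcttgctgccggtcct
CCNB1: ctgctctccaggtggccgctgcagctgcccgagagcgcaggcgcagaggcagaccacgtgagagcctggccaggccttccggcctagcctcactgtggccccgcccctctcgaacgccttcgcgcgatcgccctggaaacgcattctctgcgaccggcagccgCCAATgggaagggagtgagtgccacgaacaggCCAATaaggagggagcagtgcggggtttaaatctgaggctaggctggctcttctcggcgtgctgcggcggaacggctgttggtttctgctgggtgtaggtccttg
CDC20: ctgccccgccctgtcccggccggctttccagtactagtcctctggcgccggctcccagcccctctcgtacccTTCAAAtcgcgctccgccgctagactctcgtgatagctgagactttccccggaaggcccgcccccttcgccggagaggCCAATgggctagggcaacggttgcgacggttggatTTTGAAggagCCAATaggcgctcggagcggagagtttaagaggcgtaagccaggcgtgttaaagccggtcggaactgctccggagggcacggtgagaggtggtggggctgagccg
CDK1 and KIF23 each held 1 match of either motif, CCNB1 held 2 of CCAAT and 0 of TTTGAA, and CDC20, with the opposite change, held 2 of each. The letters thus did not separate the genes that fell from the 1 that rose. A match is a description of the window and not evidence of a bound factor.

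Transcripts of splicing factors were also called mostly downward. SR proteins bind exons and steer splice site choice, and many of their genes carry poison exons, whose inclusion can lead to decay of the RNA. Of 24 tested genes of SR proteins and their kinases and partners, 10 fell and 2 rose (41.7% and 8.33%, against 4.64% and 5.55% of all genes). Their median log2 change was −0.20, 21 were below 0, and 14 downward against 3 upward had an unadjusted p under 0.05. SRSF10 (ENSG00000188529, chromosome 1, 23964804 to 23980927), a splicing repressor, was at 220.3 and 242 CPM at 8 h and 166 and 168 CPM at 12 h (−0.47 ± 0.07 log2, adjusted p = 4.71e-05). SRSF6 (ENSG00000124193, chromosome 20, 43457928 to 43464247) went from 180.3 and 177 to 131 and 133 CPM (−0.43 ± 0.07 log2, adjusted p = 0.000172), and TRA2B, a regulator of exon inclusion, from 319.5 and 324 to 255 and 253 CPM (−0.34 ± 0.06 log2, adjusted p = 0.000926). In each the 2 libraries of a time lay within a few per cent of their mean and the groups did not overlap. SRSF2, SRSF4, SRSF11, NKTR, LUC7L, LUC7L3 and RSRC2 also fell. The 2 that rose were SRSF5, from 97.3 and 97.8 to 114 and 119 CPM (0.26 ± 0.07 log2, adjusted p = 0.0259), and SRSF9, from 145 and 150.3 to 175 and 179 CPM (0.26 ± 0.08 log2, adjusted p = 0.0305). The library without 4sU did not order these genes by direction, since SRSF2, which fell, stood at 407 CPM there and at 219 and 209 CPM at 8 h. Without 8 h replicate 1, 8 h replicate 2, 12 h replicate 1 and 12 h replicate 2 in turn, 7, 6, 6 and 7 fell and 0 rose. With spike-in sizes 3 fell, and TRA2B (−0.22 log2, adjusted p = 0.146), SRSF2, SRSF4, SRSF11, LUC7L, LUC7L3 and RSRC2 were not called.

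Genes of the oxidative stress factor NRF2 and of the amino acid stress factor ATF4 were called downward only, in a minority of each list. NRF2 drives glutathione synthesis and thioredoxin recycling, and ATF4 drives amino acid uptake and synthesis when amino acids run short or the endoplasmic reticulum is stressed. Of 23 NRF2 genes 7 fell (30.4%, against 4.64% of all genes) and 0 rose (against 5.55%). Their median was −0.17, with 11 below and 0 above 0 at an unadjusted p under 0.05 and 0 risen by DESeq2. Of 21 ATF4 genes 5 fell (23.8%) and 0 rose (median −0.24, 10 and 0 at that p, 0 risen by DESeq2). SLC3A2 (ENSG00000168003, chromosome 11, 62856102 to 62888875), the shared heavy chain of several amino acid exchangers and a member of both lists, was at 559.7 and 572 CPM at 8 h and 368 and 376 CPM at 12 h. It was the best supported of them, at a log2 change of −0.60 ± 0.06 (adjusted p = 1.2e-06). Its light chain SLC7A11 (ENSG00000151012, chromosome 4, 138164097 to 138242349), which brings in cystine for glutathione, went from 36.1 and 29.9 to 17.98 and 21.7 CPM (−0.73 ± 0.11 log2, adjusted p = 0.000102). GCLM, a subunit of the first enzyme of glutathione synthesis, went from 82.6 and 82.1 to 58.2 and 54.7 CPM (−0.55 ± 0.08 log2, adjusted p = 6.95e-05). These 3 genes of one route did not overlap between the times and were called without each library, as were TXNRD1 (thioredoxin reductase, −0.59 ± 0.11 log2) and the autophagy receptor SQSTM1 (−0.49 ± 0.07 log2). On unlabelled counts GCLM (−0.31 log2, adjusted p = 0.0590), TXNRD1 (−0.33 log2, adjusted p = 0.173) and SQSTM1 (−0.24 log2, adjusted p = 0.0848) were not called. TXN and FTH1 also fell, but not with spike-in sizes.

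ATF4 itself (ENSG00000128272, chromosome 22, 39519695 to 39522685) went from 908 and 989.5 to 804 and 737 CPM (−0.30 ± 0.07 log2, adjusted p = 0.00477), although this factor is known to be controlled mainly at translation. Its known targets TRIB3 (−0.44 ± 0.11 log2), STC2 (−0.65 ± 0.15 log2) and PPP1R15A (−0.22 ± 0.07 log2) also fell. Among 19 genes of amino acid synthesis 4 rose and 3 fell (21.1% and 15.8%, against 5.55% and 4.64% of all genes). The 3 that fell are targets of ATF4, namely PSAT1 of serine synthesis, from 84.7 and 82.0 to 54.2 and 57.6 CPM (−0.58 ± 0.08 log2, adjusted p = 6.37e-05), MTHFD2 of mitochondrial one-carbon metabolism (−0.38 ± 0.07 log2) and ASNS, asparagine synthetase (−0.28 ± 0.07 log2). Its cytosolic counterpart MTHFD1 moved the other way, from 70.8 and 78.8 to 100.3 and 104 CPM (0.45 ± 0.08 log2, adjusted p = 0.000342), and PYCR3, GOT1 and GOT2 also rose. Of 17 amino acid transporters 4 fell and 1 rose (23.5% and 5.88%). Of 20 aminoacyl-tRNA synthetases, many of them ATF4 targets as well, 4 rose and 1 fell (20% and 5%). FARSB went from 63.5 and 65.2 to 88.0 and 83.8 CPM (0.42 ± 0.09 log2, adjusted p = 0.00222), so the known targets did not share a direction. When 8 h replicate 1, 8 h replicate 2, 12 h replicate 1 and 12 h replicate 2 were left out in turn, 5, 6, 5 and 5 NRF2 genes and 3, 2, 2 and 2 ATF4 genes fell. With spike-in sizes 5 and 2 did, and ATF4 (−0.18 log2, adjusted p = 0.235), TRIB3, PPP1R15A, MTHFD2 (−0.25 log2, adjusted p = 0.103) and ASNS (−0.15 log2, adjusted p = 0.422) were not called. PSAT1 (−0.32 log2, adjusted p = 0.0695) and MTHFD2 (−0.14 log2, adjusted p = 0.350) lost their calls on unlabelled counts. The medium, the time since it was changed and the chase time moved together in these samples and cannot be told apart.

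Of 77 mitochondrial ribosomal proteins 15 rose (19.5% against 5.55% of all genes) and 1 fell (median 0.10, 60 above 0). Of 84 cytosolic ribosomal proteins 0 rose and 2 fell, 2.38% against 4.64% of all genes (median −0.08, 78 below 0). None of the 84 had an unadjusted p under 0.05 upward, and DESeq2 also called 0 upward. MRPL12 (ENSG00000262814, chromosome 17, 81703357 to 81707526), which also binds the mitochondrial RNA polymerase, was at 20.8 and 20.9 CPM at 8 h and 46.8 and 31.1 CPM at 12 h (0.90 ± 0.15 log2, adjusted p = 0.00043). Its 12 h libraries were apart from each other but both above 8 h. MRPL2 went from 26.8 and 32.0 to 43.8 and 39.2 CPM (0.50 ± 0.11 log2, adjusted p = 0.00489), and MRPS18A from 60.3 and 68.8 to 83.6 and 88.3 CPM (0.41 ± 0.10 log2, adjusted p = 0.00628). The 1 that fell was MRPL32, from 32.7 and 28.2 to 21.7 and 21.1 CPM (−0.51 ± 0.16 log2, adjusted p = 0.0441). Without 8 h replicate 1, 8 h replicate 2, 12 h replicate 1 and 12 h replicate 2 in turn, 3, 10, 5 and 6 of the mitochondrial list rose, so this count depended on every library and most on 8 h replicate 1. Among the cytosolic proteins RPL6 went from 96.4 and 103 to 67.7 and 82.5 CPM (−0.40 ± 0.08 log2, adjusted p = 0.00251) and RPL7L1 fell by 0.24 on the log2 scale. Ribosomal protein genes have many processed copies, so their counts are uncertain, and with spike-in sizes the median of this list changed sign to 0.04. RPL6 (−0.27 log2, adjusted p = 0.121), RPL7L1 and MRPL32 were not called with them.

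Factors that build ribosomes in the nucleolus rose where they were called: 8 of 55 rose (14.5%, against 5.55% of all genes) and 0 fell (against 4.64%). Their median was 0.06, with 15 above and 5 below 0 at an unadjusted p under 0.05 and 0 fallen by DESeq2. BOP1 (ENSG00000261236, chromosome 8, 144262102 to 144291370), which acts in processing of the large subunit, was at 21.5 and 25.4 CPM at 8 h and 38.3 and 35.2 CPM at 12 h (0.65 ± 0.11 log2, adjusted p = 0.000245). UTP4 (ENSG00000141076, chromosome 16, 69131291 to 69231130), of the small subunit processome, went from 466 and 519 to 599 and 606 CPM (0.29 ± 0.06 log2, adjusted p = 0.00356), and NPM1, the abundant nucleolar chaperone, from 3521 and 3683 to 4285 and 4220.2 CPM (0.24 ± 0.06 log2, adjusted p = 0.0110). HEATR1, RRP9, MYBBP1A, GAR1 and UTP20 also rose, and no group of these overlapped. Leaving out 8 h replicate 1, 8 h replicate 2, 12 h replicate 1 and 12 h replicate 2 in turn left 2, 5, 5 and 7 rises. Translation factors went both ways, 9 up and 6 down of 65 (13.8% and 9.23%). EIF2AK1, the haem-regulated kinase of eIF2, rose from 67.6 and 67.0 to 91.5 and 90.4 CPM (0.43 ± 0.08 log2, adjusted p = 0.000602), EIF2B5, of the eIF2 exchange factor, from 76.7 and 79.0 to 113 and 103 CPM (0.47 ± 0.09 log2, adjusted p = 0.000652), while EIF5, the activator of eIF2's GTPase, fell from 288 and 304 to 229 and 230.0 CPM (−0.37 ± 0.06 log2, adjusted p = 0.000332). None of the 6 falls of translation factors was called with spike-in sizes, and EIF5 was not called on unlabelled counts (−0.16 log2, adjusted p = 0.216). Of 80 nuclear genes of oxidative phosphorylation 6 rose and 0 fell by edgeR or DESeq2, with 9 above and 6 below 0 at an unadjusted p under 0.05. The rises are 7.50% of the list, near the 7.32% of coding genes, and the median was −0.03, of the opposite sign. When 8 h replicate 1, 8 h replicate 2, 12 h replicate 1 and 12 h replicate 2 were left out in turn, 1, 4, 4 and 2 of them rose.

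**Figure D3:**
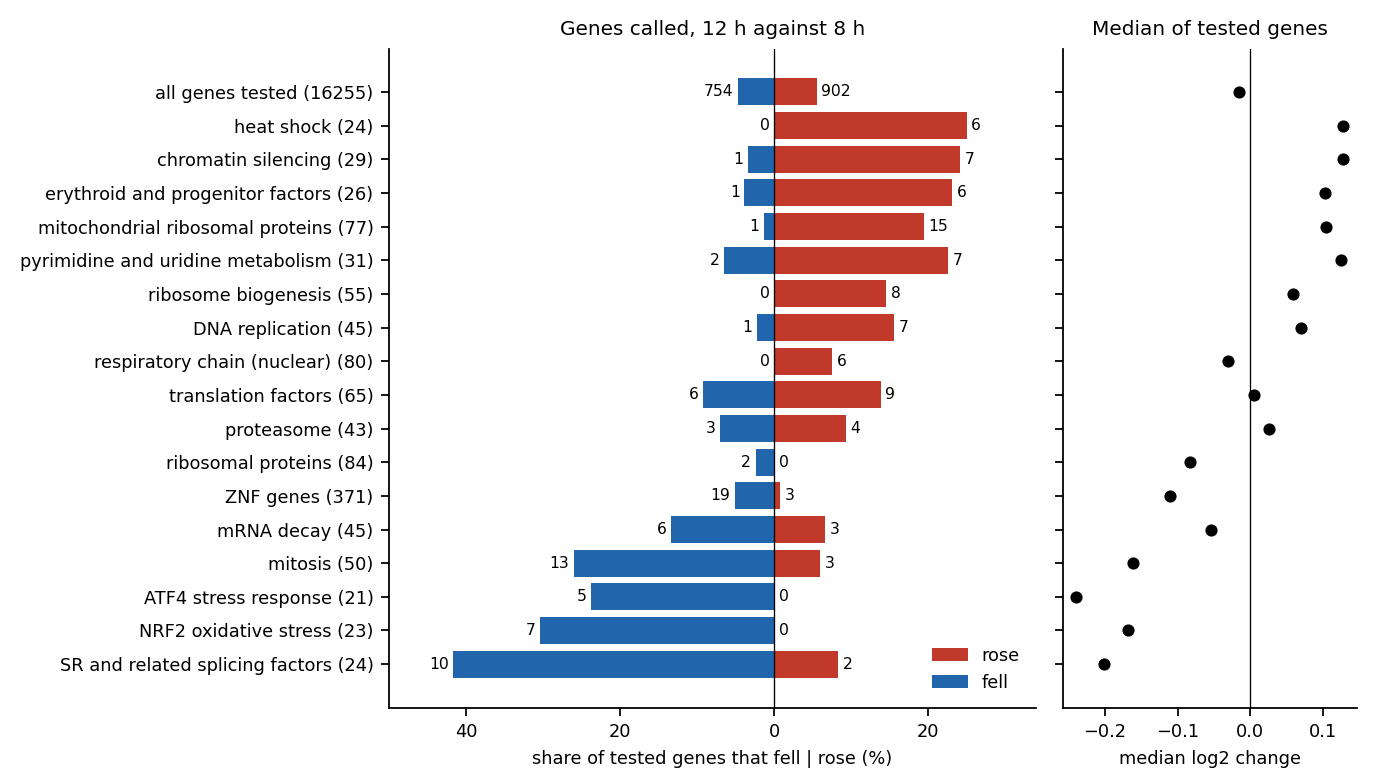
Share of the tested genes of each list (number tested in brackets) that rose (red) or fell (blue) between 8 and 12 h, in percent with the count at each bar, and the median log2 change of the tested genes (right panel). Mitosis, SR splicing, NRF2 and ATF4 genes fell more often than they rose, and mitochondrial ribosomal proteins, ribosome biogenesis, heat shock and chromatin silencing genes rose more often.

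During the chase the cells were in an excess of uridine. Of 31 genes of pyrimidine and uridine metabolism 7 rose and 2 fell (22.6% and 6.45%, against 5.55% and 4.64% of all genes, median 0.12). The equilibrative nucleoside transporter SLC29A2 (ENSG00000174669, chromosome 11, 66362521 to 66372214) was at 21.5 and 24.2 CPM at 8 h and 40.8 and 43.1 CPM at 12 h (0.88 ± 0.12 log2, adjusted p = 3.71e-05). SLC29A1 (ENSG00000112759, chromosome 6, 44219505 to 44234151), the main transporter of this kind in blood cells, went from 96.0 and 108 to 139.7 and 145 CPM (0.48 ± 0.08 log2, adjusted p = 0.000195). UCK2 (ENSG00000143179, chromosome 1, 165827531 to 165911618), the kinase that makes UMP from uridine and also acts on 4sU, went the other way, from 184 and 185 to 146 and 138 CPM (−0.38 ± 0.07 log2, adjusted p = 0.0005). The times did not overlap in any of the 3, and each was called without each library. UCK2 was not called with spike-in sizes (−0.26 log2, adjusted p = 0.0787) or on unlabelled counts (−0.18 log2, adjusted p = 0.169). CAD and CTPS1, enzymes of new pyrimidine synthesis, rose by 0.38 ± 0.09 and 0.31 ± 0.08 on the log2 scale, as did CMPK1 and NT5C3B, while NT5C3A fell, without a call in either of these fits. Without 4sU, SLC29A2 stood at 91.1 CPM, SLC29A1 at 249.8 and UCK2 at 99.9, each beyond its 12 h level on the side to which it moved. Over the list, leaving out 8 h replicate 1, 8 h replicate 2, 12 h replicate 1 and 12 h replicate 2 in turn gave 3, 3, 4 and 2 rises.

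Chaperone and replication genes were called mostly upward. Of 24 heat shock genes 6 rose (25%, against 5.55% of all genes) and 0 fell (against 4.64%). Their median was 0.13, with 9 above and 0 below 0 at an unadjusted p under 0.05 and 0 fallen by DESeq2. FKBP4, a co-chaperone of HSP90, was at 76.1 and 81.3 CPM at 8 h and 109 and 111 CPM at 12 h (0.49 ± 0.08 log2, adjusted p = 0.00021). HSF1, the master factor of the heat shock response, went from 38.5 and 38.5 to 49.5 and 53.7 CPM (0.42 ± 0.10 log2, adjusted p = 0.00447), and HSP90AB1 from 2228 and 2428 to 2699 and 2719.9 CPM (0.22 ± 0.06 log2, adjusted p = 0.0200). HSPD1, DNAJB6 and HSPA4 also rose, all by under 0.25 on the log2 scale. Of 45 DNA replication genes 7 rose and 1 fell (15.6% and 2.22%, median 0.07), and of 23 regulators of the step from G1 to S phase 4 rose and 1 fell (17.4% and 4.35%). RPA1, of the single-strand binding complex, rose from 52.9 and 59.6 to 70.5 and 74.7 CPM (0.37 ± 0.10 log2, adjusted p = 0.0134), with RRM1, CDC45, CDT1, POLA2, RFC5 and POLE. The 1 that fell was ORC6, of the origin recognition complex, from 59.0 and 53.6 to 38.0 and 37.5 CPM (−0.58 ± 0.09 log2, adjusted p = 0.000221), and it was called without each library. Each replication gene that rose kept a log2 change above 0 without each library in turn, but lost its call without some of them. Such a fit has 1 library in a group and less power. Among heat shock genes that rose only FKBP4 kept its call without each. Without 8 h replicate 1, 8 h replicate 2, 12 h replicate 1 and 12 h replicate 2 in turn, 0, 1, 2 and 0 replication genes and 2, 5, 2 and 1 heat shock genes rose.

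Among regulators of chromatin 7 of 29 rose and 1 fell (24.1% and 3.45%, against 5.55% and 4.64% of all genes, median 0.13). HDAC7 (ENSG00000061273, chromosome 12, 47782722 to 47833132), a class IIa histone deacetylase, was at 190.0 and 203 CPM at 8 h and 304 and 339 CPM at 12 h (0.71 ± 0.07 log2, adjusted p = 1.75e-06). HDAC3, of the NCOR and SMRT corepressor complexes, went from 73.5 and 80.8 to 107 and 106 CPM (0.47 ± 0.08 log2, adjusted p = 0.000512), and HDAC1 from 182 and 186 to 239.8 and 231 CPM (0.36 ± 0.07 log2, adjusted p = 0.00110). These 3 deacetylases and the Polycomb gene CBX2 (0.64 ± 0.12 log2) rose without overlap and were called without each library. DNMT1, the maintenance DNA methyltransferase, rose from 175 and 182 to 220.2 and 256 CPM (0.41 ± 0.08 log2, adjusted p = 0.00136), and TET1, which oxidises methylcytosine, from 6.45 and 8.71 to 13.99 and 13.3 CPM (0.85 ± 0.17 log2, adjusted p = 0.00193), so genes of both arms of DNA methylation rose. PHC2 rose and RNF2 fell, RNF2 without a call with spike-in sizes. The count of rises was 5, 7, 6 and 6 without 8 h replicate 1, 8 h replicate 2, 12 h replicate 1 and 12 h replicate 2, the least sensitive of the lists described here with 5 or more rises.

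Erythroid transcription factors mostly rose where they were called, 6 of 26 against 1 that fell (median 0.10). These are 23.1% and 3.85%, beside 5.55% and 4.64% of all genes. CBFA2T3 (ENSG00000129993, chromosome 16, 88874858 to 88977204), also named ETO2, a corepressor of the GATA1 and TAL1 complex, was at 57.1 and 55.9 CPM at 8 h and 91.5 and 94.2 CPM at 12 h (0.72 ± 0.09 log2, adjusted p = 1.67e-05). LYL1 (ENSG00000104903, chromosome 19, 13099033 to 13103161), a relative of TAL1, went from 152 and 174 to 226 and 237 CPM (0.51 ± 0.08 log2, adjusted p = 8.98e-05), and the scaffold LDB1 from 14.5 and 14.4 to 24.1 and 20.0 CPM (0.61 ± 0.14 log2, adjusted p = 0.00565). KLF1, LMO2 and STAT5A also rose, with KLF1 at 119.7 and 119.9 CPM and then at 151 and 146 CPM (0.31 ± 0.08 log2, adjusted p = 0.0140). MYB (ENSG00000118513, chromosome 6, 135181315 to 135219173), which keeps progenitors immature, was the 1 that fell, from 362 and 378 to 304 and 299 CPM (−0.30 ± 0.07 log2, adjusted p = 0.00388), and with spike-in sizes it was not called (−0.17 log2, adjusted p = 0.308). GATA1 was at 85.8 and 86.2 CPM at 8 h and 99.4 and 102 CPM at 12 h, above both earlier values, but did not pass (adjusted p = 0.0656). TAL1 was at 154 and 171 and then 173 and 170.1 CPM and MYC at 49.5 and 33.6 and then 33.4 and 30.9 CPM, with adjusted p of 0.570 and 0.0689. For MYC the wide gap between the 8 h libraries exceeded that between their lower value and 12 h. When 8 h replicate 1, 8 h replicate 2, 12 h replicate 1 and 12 h replicate 2 were left out in turn, 3, 4, 3 and 4 erythroid factors rose. Megakaryocyte genes lay higher at 12 h as well, with the sums given above. Of 6 tested, 2 rose (33.3%, against 5.55% of all genes, median 0.43), namely F2RL3, a thrombin receptor, and GP6, a collagen receptor. Their part in the rise of erythroid factors was not tested.

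TFRC (ENSG00000072274, chromosome 3, 196027183 to 196082189), the transferrin receptor through which red cell precursors take up iron, rose. It stood at 307 and 328 CPM at 8 h and 499 and 496 CPM at 12 h, with a log2 change of 0.65 ± 0.06 (adjusted p = 6.77e-07). The heavy chain of the iron store, FTH1, moved down from 1083 and 1061 to 948 and 902 CPM (−0.21 ± 0.06 log2, adjusted p = 0.0212). TFRC messenger RNA is known to be stabilised, and ferritin translation blocked, by iron regulatory proteins when iron is short. The other 11 of 13 iron genes were not called, so 7.69% rose and 7.69% fell, beside 5.55% and 4.64% of all genes. FTH1, which has many processed copies, lost its call without each of the 4 libraries in turn and with spike-in sizes. SLC2A1, the glucose transporter of the red cell membrane, went from 180.3 and 173 to 139.7 and 137 CPM (−0.35 ± 0.06 log2, adjusted p = 0.000786), and ERMAP and SLC6A9 fell with it, while SPTB rose. With spike-in sizes SLC2A1 (−0.22 log2, adjusted p = 0.151), ERMAP and SLC6A9 were not called. Of 11 globin genes tested 1 fell (9.09%, against 4.64% of all genes), and 9 were below 0. The 1 that fell was the embryonic HBZ, from 409 and 409.6 to 342 and 331 CPM (−0.28 ± 0.09 log2, adjusted p = 0.0338). HBZ was not called without any 1 of the 4 libraries or with spike-in sizes. HBG2 was at 4591 and 4881 CPM at 8 h and 4411 and 4152 CPM at 12 h (adjusted p = 0.192), HBG1 at 3450.3 and 3709 and then 3259 and 3121 CPM (adjusted p = 0.134) and HBE1 at 472 and 498 and then 432 and 408 CPM (adjusted p = 0.0514). Each of these lay lower at 12 h without passing the test.

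Of 19 genes around BCR-ABL1 and STAT5, 1 rose and 3 fell (5.26% and 15.8%, against 5.55% and 4.64% of all genes). ABL1 rose from 142 and 135 to 169 and 167 CPM (0.28 ± 0.07 log2, adjusted p = 0.0132). Reads at its 3′ end come from ABL1 and from the BCR-ABL1 fusion alike, while BCR was near 4.23 and 3.58 CPM at 12 h and did not pass. The STAT5 targets PIM1, a survival kinase, and SOCS2, a feedback inhibitor, moved the other way, PIM1 from 199.6 and 146 to 117 and 98.9 CPM (−0.68 ± 0.12 log2, adjusted p = 0.000465) and SOCS2 from 55.6 and 47.1 to 38.1 and 35.2 CPM (−0.49 ± 0.10 log2, adjusted p = 0.00146). The 8 h libraries of PIM1 were well apart, yet both were above 12 h, and its call held without each library. ABL1 was not called without any 1 of the 4 libraries (adjusted p up to 0.108). SOCS2 lost its call without 8 h replicate 1, without 12 h replicate 2, and with spike-in sizes (−0.36 log2, adjusted p = 0.0523). The common reference genes were not called, with adjusted p of 0.920 for GAPDH, 0.694 for ACTB, 0.152 for EEF1A1 and 0.664 for the survival gene MCL1.

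**Figure D4:**
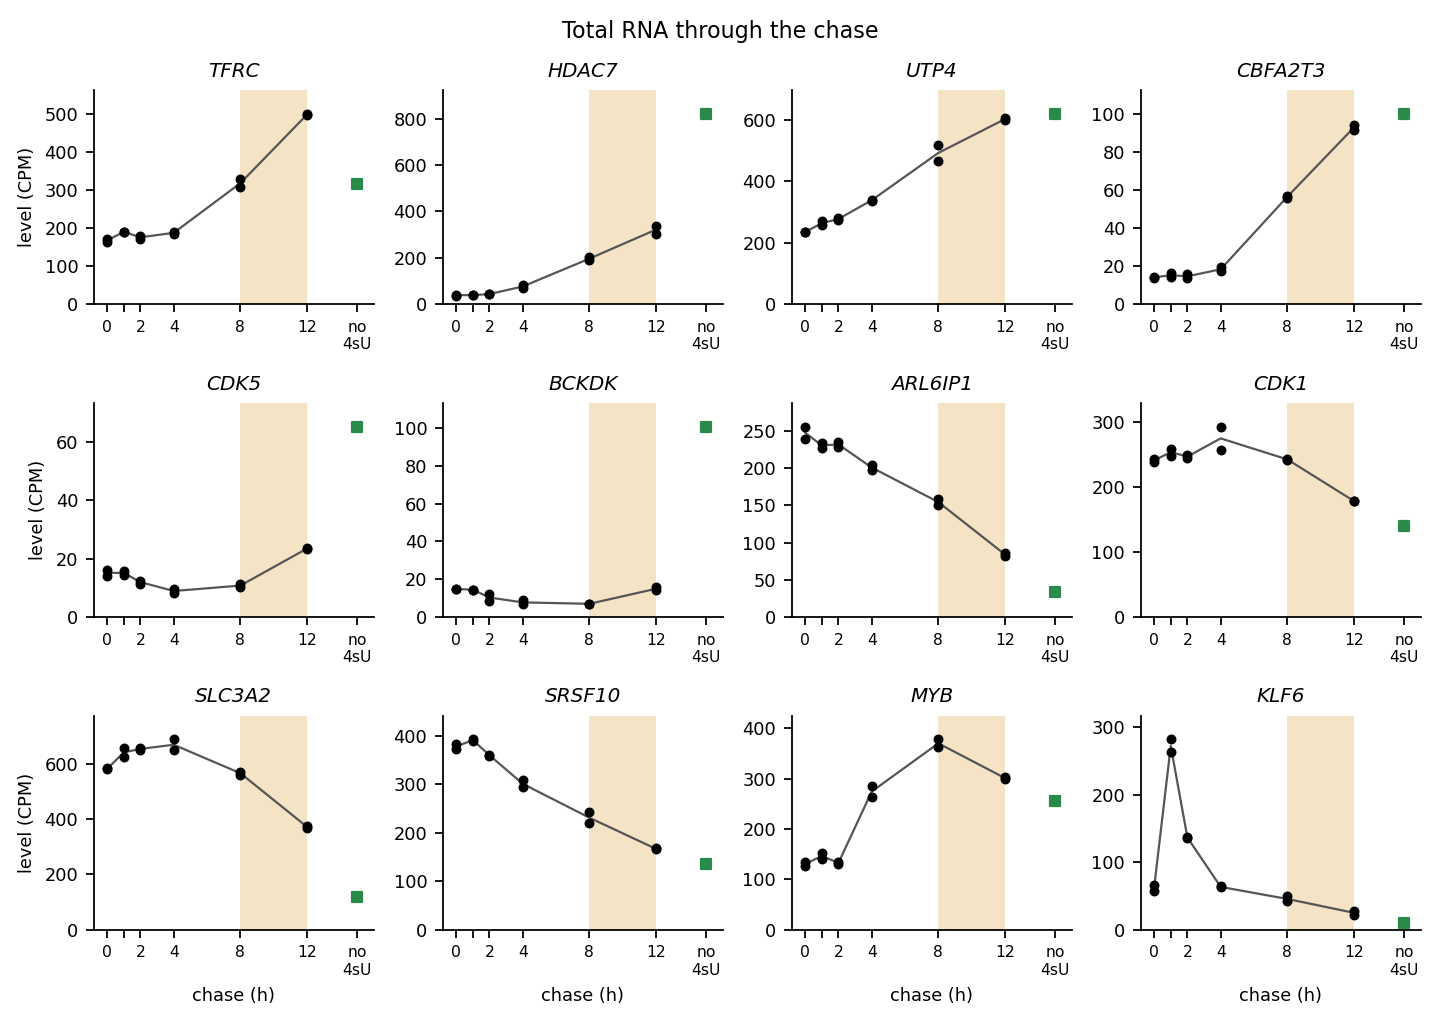
Total level in CPM (y axes, from 0) over chase time in h (x axes) for 12 genes, with a dot per library, a line through the means, the 8 to 12 h interval shaded and a green square for the library without 4sU. TFRC, HDAC7, UTP4, CBFA2T3, CDK5 and BCKDK are higher and ARL6IP1, CDK1, SLC3A2, SRSF10, MYB and KLF6 lower at 12 h than at 8 h.

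Late movers had come by different paths. TFRC was at 165 and 171 CPM at 0 h and 189 and 185 CPM at 4 h, and CBFA2T3 at 14.3 and 13.9 and then 19.3 and 17.4 CPM, so that both had changed little before the rise to their 8 h and 12 h levels. SRSF10 was at 373 and 383 CPM at 0 h and 294 and 308 CPM at 4 h and lay lower at each later time. KLF6 was at 56.9 and 67.1 CPM at 0 h, 263 and 282 CPM at 1 h and 62.8 and 64.4 CPM at 4 h, a brief peak well before the late fall. The change after 8 h was then compared with that of the 4 h before it. In 70 genes (0.431%) the later change lay above the earlier one and in 152 (0.935%) below it, 222 (1.37%) in all. Of the 70, 54 had gone down and then up, 14 down in both intervals and 2 up in both. Of the 152, 76 had gone up and then down, 75 up in both and 1 down in both. BCKDK was at 6.72 and 8.76 CPM at 4 h, at 6.92 and 7.07 at 8 h and at 15.6 and 14.3 at 12 h, low at 4 and 8 h and higher after (difference of the 2 changes 1.23 ± 0.30 log2, adjusted p = 0.0378). MYB, by contrast, was at 263 and 285 CPM at 4 h, at 362 and 378 at 8 h and at 304 and 299 at 12 h (−0.73 ± 0.11 log2, adjusted p = 0.00094), so that it crested near 8 h. HDAC7 kept rising with a smaller second step, from 70.3 and 83.0 CPM at 4 h to the 8 h and 12 h levels given above (−0.65 ± 0.13 log2, adjusted p = 0.0117). These counts were unstable. Leaving out 8 h replicate 2 gave 10 and 8 genes in place of 70 and 152, leaving out 4 h replicate 2 gave 324 and 424, and spike-in sizes gave 10 and 50.

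Some other groups were called more in one direction, which was not always that of their median. Of 371 genes with ZNF symbols 19 fell and 3 rose (median −0.11, 235 below 0), a share of falls near the 4.64% of all genes. ZNF24 was at 291 and 296 CPM at 8 h and 214 and 229 CPM at 12 h (−0.41 ± 0.07 log2, adjusted p = 0.000523), and ZNF714 at 35.0 and 41.1 and then 27.1 and 24.9 CPM (−0.55 ± 0.11 log2, adjusted p = 0.00115). With spike-in sizes 2 of them fell, ZNF24 was not called (−0.28 log2, adjusted p = 0.0739) and the median became 0.02, and without 8 h replicate 1, 8 h replicate 2, 12 h replicate 1 and 12 h replicate 2 in turn 8, 10, 6 and 10 fell. Of 45 genes of mRNA decay 6 fell (13.3%) and 3 rose (6.67%, against 5.55% of all genes). The falls included the decapping activator DDX6 (−0.26 ± 0.06 log2), DCP1A (−0.45 ± 0.10 log2) and the poly(A) binding protein PABPC1 (−0.22 ± 0.06 log2). The rises were led by EDC4, another decapping scaffold, from 77.0 and 84.7 to 107 and 110.0 CPM (0.42 ± 0.08 log2, adjusted p = 0.00116). Of 24 genes of transcription elongation 4 fell (16.7%) and 1 rose (4.17%). Among the falls were CCNT1, the cyclin of P-TEFb (−0.40 ± 0.10 log2), LARP7 (−0.29 ± 0.07 log2), of the particle that holds P-TEFb inactive, and the bromodomain gene BRD2 (−0.23 ± 0.06 log2). With spike-in sizes 0 of the decay and 0 of the elongation genes fell. Of 38 immediate early genes 4 rose (10.5%) and 1, KLF6, fell (2.63%), while the median was −0.03 and 24 were below 0. IER2 went from 391 and 423 to 549.9 and 528 CPM (0.40 ± 0.07 log2, adjusted p = 0.000344), and JUNB, JUND and IER3 rose by 0.26 to 0.32 on the log2 scale. Of 22 tested ID genes and genes of BMP and TGF-β signalling 3 rose (13.6%) and 0 fell, with a median of −0.01 and 12 below 0. They were SMAD6, an inhibitor of BMP signalling, and its fellow BMP targets ID2 and ID3. SMAD6 went from 1.56 and 1.23 to 3.91 and 3.51 CPM (1.40 ± 0.29 log2, adjusted p = 0.00237), with 26.8 CPM without 4sU.

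Outside protein-coding genes, mitochondrial tRNA genes were called downward. Of 12 of them 6 fell (50%, against 4.64% of all genes). Their median was −0.36, with 9 below and 0 above 0 at an unadjusted p under 0.05. MT-TF was at 32606 and 36138 CPM at 8 h and 26692 and 27675 CPM at 12 h (−0.34 ± 0.07 log2, adjusted p = 0.00238), and MT-TN at 1297 and 1418 and then 979 and 1049.5 CPM (−0.42 ± 0.09 log2, adjusted p = 0.00422). MT-TM, MT-TA, MT-TC and MT-TP fell too, whereas MT-TG was at 1171 and 1229 and then 1262 and 1283 CPM (adjusted p = 0.497). These genes adjoin or overlap longer mitochondrial transcripts, so their reads cannot be assigned to mature tRNA. With spike-in sizes MT-TM and MT-TC fell, while MT-TF (−0.21 log2, adjusted p = 0.0869), MT-TN (−0.29 log2, adjusted p = 0.0523), MT-TA and MT-TP were not called. Of 12 mitochondrial messenger RNAs 1 rose, MT-ND5 (8.33%, against 5.55% of all genes). By edgeR or DESeq2 0 fell, with 2 above and 0 below 0 at an unadjusted p under 0.05. Rises were rarer in processed pseudogenes: of 1846, 18 rose (0.975% against 7.32% of coding genes) and 91 fell (4.93% against 5.04%), with a median of −0.17. Their reads cannot be told apart from those of near-identical parent genes. RPL37P6, chosen after its values were seen, is a transcribed processed pseudogene that rose, from 281 and 299 to 351 and 929.9 CPM (1.15 ± 0.20 log2, adjusted p = 0.000568), with its 12 h libraries far apart. SNHG15, a host of small nucleolar RNA, fell from 74.5 and 65.1 to 51.4 and 47.4 CPM (−0.50 ± 0.08 log2, adjusted p = 0.000332). Of 26 such hosts 4 fell and 1 rose (15.4% and 3.85%, against 4.64% and 5.55% of all genes). With spike-in sizes 1 of the hosts fell and 3 rose. Among 21 replication-dependent histone genes, whose messages mostly lack poly(A) tails, H1-2 and H4C3 fell (9.52%, against 4.64% of all genes). By edgeR or DESeq2 0 rose (against 5.55%), with 0 above and 3 below 0 at an unadjusted p under 0.05. With spike-in sizes H1-2 was not called (−0.16 log2, adjusted p = 0.314). RNU6-1 was the 1 called rise whose groups overlapped, at 2.33 and 0.904 CPM at 8 h and 33.9 and 1.46 CPM at 12 h. It rested on 12 h replicate 1 and lost its call without that library.

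Labelled and unlabelled reads divided the changes unevenly. Labelled CPM, on the library sizes of total RNA, was lower at 12 h in 83.8% of all genes, in 847 of the 902 rises (93.9%) and in 748 of the 754 falls (99.2%). Unlabelled CPM was higher at 12 h in 902 of the 902 rises and lower in 721 of the 754 falls (95.6%), against 61.5% and 38.2% of all genes. Unlabelled reads are most of the total on which the calls were made, so these shares largely follow from the calls. The labelled share of the genes that fell was higher at each time, with a median of 64.7% at 0 h, 16.1% at 8 h and 7.48% at 12 h, against 44.5%, 11.04% and 4.22% for the rises and 55.8%, 12.3% and 5.02% for all genes tested. Run on unlabelled counts alone, with sizes of their own, the test called 782 rises (4.81%) and 447 falls (2.75%), together 7.56%, of which 645 and 396 were the same as with all counts, and 0 were opposite. ARL6IP1 went from 50.2 to 33.1% labelled and fell by 0.55 on the log2 scale in unlabelled counts, against 0.88 in all counts. TFRC, with 11.5 and 4.11% labelled, changed by 0.67 in unlabelled counts. FADS1, a fatty acid desaturase with 47.8% labelled at 8 h and 30.2% at 12 h, fell from 148 and 139 to 96.8 and 96.7 CPM (−0.57 ± 0.07 log2, adjusted p = 9.59e-06), and by 0.25 in unlabelled counts. The sign differed in SCD, the stearoyl-CoA desaturase, with −0.23 ± 0.06 on all counts (adjusted p = 0.0213) and 0.14 on unlabelled counts (adjusted p = 0.291). SCD was not called with spike-in sizes either, and FADS1 was not called on unlabelled counts (adjusted p = 0.0560). Falls of NARS1, EIF4H and MAP1LC3B, other members of the lists, were also slightly above 0 on unlabelled counts, at 0.09, 0.04 and 0.01. None of them was called with spike-in sizes.

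The genes that moved late were set beside the difference between the library without 4sU and 0 h, the end of labelling. This contrast shares no library with 8 or 12 h, but it has 1 library on one side, which is assumed to vary like the other groups, so its calls describe that library and not a replicated condition. Of the rises, 809 (89.7%) were called higher in the library without 4sU than at 0 h and 24 (2.66%) lower. Of the falls, 647 (85.8%) were lower and 38 (5.04%) higher. Over all genes tested, 31.8% were higher and 33.5% lower. Read from the other side, 15.6% of the genes higher without 4sU rose late and 0.735% fell late, and of those lower without 4sU 11.9% fell late and 0.441% rose late. The step from 0 to 4 h did not sort them in this way: 247 of the rises were called up and 229 down by 4 h, and 151 and 217 of the falls, with 16.7% and 15.5% of all genes called up and down. The library without 4sU lay above the 12 h mean in 687 of the rises (76.2%) and 180 of the falls (23.9%), against 47.5% of all genes. The spike-in genes, whose RNA came from Drosophila cells, separated the same libraries: on the component described above 0 h scored −3.50 and −3.76, the library without 4sU 2.23, and 8 and 12 h 2.55 to 5.32. The part of this in the overlap was not tested. No library without 4sU that was matched in time was analysed here, so time in culture, chase time and recovery from 4sU cannot be told apart.

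**Figure D5:**
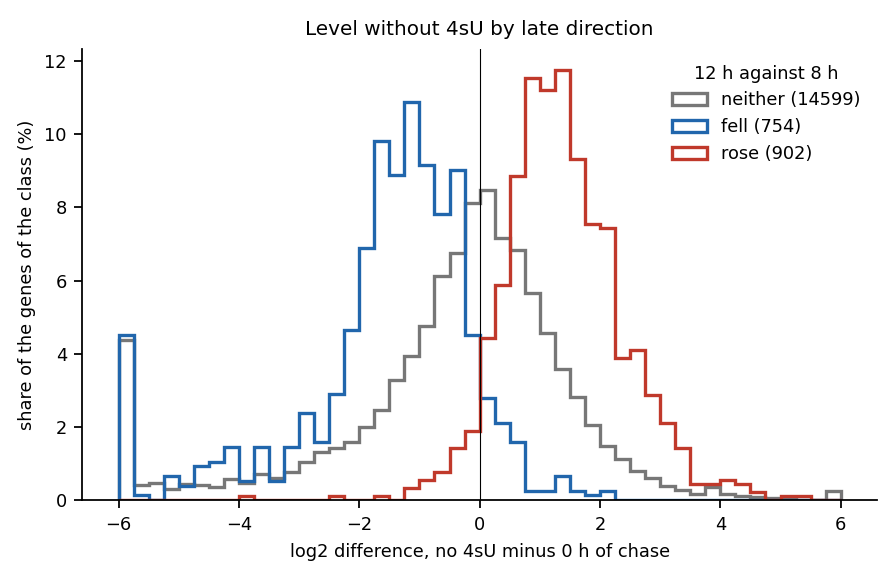
Histograms of the log2 difference between the library without 4sU and 0 h of chase (x axis, values beyond the ends drawn in the end bins) for genes that rose, fell or were not called between 8 and 12 h, each as a share of its class in percent (y axis). The 902 rises lie mostly above 0 and the 754 falls mostly below 0, and the 14599 genes called neither way spread over both sides.

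Called genes also differed in composition. Among coding genes the last 250 bases of the transcript held a median of 28.0% T in the rises, 34.4% in the falls and 30.8% in all tested, and 47.6%, 33.6% and 39.6% G or C (GENCODE 29 transcripts). Over the whole transcript G and C made up 55.9%, 43.8% and 48.4%. Transcript length had medians of 3334, 4036 and 3586 bases. Promoter windows, found for 689 of 843 rises, 477 of 580 falls and 9387 of 11509 coding genes, held 67.7%, 64.0% and 65.3% G or C. T content sets how many bases of a read can carry label and conversion, and GC content is known to affect amplification. Their part in the result was not tested.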

How the data were processed

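The authors deposited 3 tables of raw counts for 13 libraries: 1 per human gene over all reads, 1 per human gene over the reads called nascent (labelled), and 1 per Drosophila spike-in gene. Per the labels' protocols, K562 RNA was alkylated with iodoacetamide, spiked with S2 RNA and made into QuantSeq 3′ libraries. Builds were hg38 and dm6, and bedtools, Trim Galore 0.6.5 and bcl2fastq 2.17.1.14 were used, per the submitters' processing notes. Not given in the sources used here are the aligner, counter, annotation, use of strand and the conversions that define a nascent read. Counts of near-identical copies, pseudogenes and overlapping genes are therefore uncertain.

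Libraries were grouped by their titles. The 4 libraries compared held 11507151 to 12820690 human counts, and replicates of each time differed by more than sampling noise, so all were kept. Counts were tested with edgeR 4.0.16 in R 4.3.3 (filterByExpr, TMM, quasi-likelihood F-test, two-sided) over 13 libraries in 7 groups, which share 1 estimate of spread with 6 residual degrees of freedom, and adjusted by Benjamini-Hochberg over all 16255 genes at 0.05. The replicate-free library without 4sU adds nothing to the spread. The scripts were checked on simulated data. CPM were computed with TMM factors, for labelled counts with the factors of all counts. Gene positions are those of GENCODE 29 on GRCh38, and promoters those of RefSeq on GRCh38.p14. Alternatives were DESeq2 1.42.0, median-of-ratios factors, spike-in library sizes, other filters, only the libraries compared, a replicate block and leaving out each library. Tests without annotated pseudogenes and on unlabelled counts were chosen after seeing the data.

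Members and lists were chosen with earlier results of these data known. Genes named were the 12 largest rises and 12 largest falls among called genes with a symbol that are not pseudogenes, have a mean of at least 5 CPM and do not overlap between the times, up to 3 called members with the smallest p from each of 50 lists, and a set of K562 and reference genes. Other members were chosen after their values were seen.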

Additional observations from a re-analysis of the deposited data

Results flagged for a closer look

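A test of the difference between the change from 8 to 12 h and the change from 4 to 8 h singled out 70 genes whose later change was above the earlier one and 152 whose later change was below it (edgeR, false discovery rate 0.05). The 8 h libraries enter both changes with opposite signs, which the contrast takes into account.

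Among the genes chosen by the naming rule, 4 had a later change above the earlier one. The difference was 1.23 (log2) for BCKDK, 0.98 for MT-ND5, a subunit of respiratory complex I encoded in mitochondrial DNA, 0.84 for BOP1 of ribosome biogenesis and 0.46 for UQCRC2 of complex III. At 4 h MT-ND5 stood at 36.0 and 35.4 CPM, at 8 h its level was 23.6 and 24.7 CPM, and 12 h gave 30.3 and 34.2 CPM. For BOP1 the 4 h libraries gave 24.8 and 28.7 CPM, those of 8 h 21.5 and 25.4 CPM and those of 12 h 38.3 and 35.2 CPM. In both the 8 h mean was the lowest of the 3 times, in BOP1 with overlap between 4 and 8 h, and all 4 genes rose after 8 h.

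Another 10 of them had a later change below the earlier one. In MYB (−0.73), AEN (−0.46), a nuclease induced by p53, and H4C3 (−0.95), a histone H4 gene, the level was higher at 8 h than at 4 h and fell after 8 h. With spike-in sizes the falls of MYB and AEN after 8 h were not called. The 4 h libraries held 71.7 and 100.4 CPM of H4C3, the 8 h ones 112 and 122 CPM and the 12 h ones 91.1 and 74.3 CPM. CBFA2T3 (−0.90), HDAC7 (−0.65), HEATR1 (−0.62), the glucose transporter SLC2A3 (−0.61), ID2 (−1.26) and the thrombin receptor F2RL3 (−1.45) were higher at each of the 3 times than at the one before, with a smaller second step. ID2, a BMP target and inhibitor of helix-loop-helix factors, had 6.57 and 7.08 CPM in the 4 h libraries, 20.7 and 28.8 CPM in the 8 h ones and 33.4 and 41.4 CPM in the 12 h ones. ARL6IP1 (−0.50) was lower at each time than at the one before, with a larger second step.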

How the results depend on the processing

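Between 8 and 12 h, 902 rises and 754 falls became 676 and 525 with DESeq2. With only the libraries compared they became 1233 and 929, of 13790 genes tested. No called gene reversed its direction as a call in any alternative. Falls were 169 with spike-in library sizes and 447 on unlabelled counts. Leaving out 1 library gave 256 to 588 rises and 280 to 431 falls. For the difference between the later and the earlier change, the 70 genes above and 152 below became 10 and 50 with spike-in sizes, 20 and 90 with only the libraries compared, 182 above with no filter on low counts, and 234 above on unlabelled counts. Leaving out 1 library gave 10 to 324 above and 8 to 424 below, with the lowest values without 8 h replicate 2 and the highest without 4 h replicate 2. The cause was not tested. With the replicate number as a block, the counts were 1087 and 813, 127 and 232, and 0 and 0 for spike-in genes. Same-numbered libraries did not deviate together throughout (15 correlations of replicate differences between times, −0.145 to 0.392, and 0.0101 between 8 and 12 h), so the numbers were not used as pairs. SCD changed sign to 0.14 on unlabelled counts. Of the alternatives for 151 named genes, 1660 kept the call or its absence, 275 lost a call, 18 gained one and 1 reversed. With 2 libraries a time, small changes in low genes were not detectable, and the ratio of human to spike-in counts cannot reach significance.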
